A study of Arabidopsis thaliana with 7 samples.

Results

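The subject is the low phosphate response of double-stranded RNA (dsRNA) in Arabidopsis roots, gene by gene, set against the low phosphate response of poly(A) RNA. A gene's interaction is its log2 change under low phosphate in dsRNA minus its log2 change in poly(A) RNA. Genes were joined by locus identifier: 27416 loci were in both tables, and 17118 of them passed a low count filter in each assay and were tested. Of these 17118 genes, 448 (2.62%) had an interaction at an edgeR adjusted p under 0.05, 347 above 0 and 101 below 0. The material was roots of 14-day-old seedlings kept for 7 days on medium with 0 µM phosphate (low phosphate) or 500 µM phosphate (control). The series has 7 samples and 4 of them enter here, dsRNA low phosphate, dsRNA control, poly(A) low phosphate and poly(A) control, each held as 2 numbered libraries. The poly(A) RNA came from a line labelled 35S:HF-FLAG-RPL8, which the growth text gives as 35S:His6FLAG-RPL18B, a tagged ribosomal protein driven by a promoter active in most tissues. The dsRNA samples are labelled Col-0, the wild type accession, although their growth text names the same transgenic line. The dsRNA libraries were made from total RNA depleted of ribosomal RNA, digested with a nuclease that cuts single strands, and built with a small RNA kit. The poly(A) libraries were made from poly(A)-selected RNA of a clarified extract. Reads were counted per gene for dsRNA and per coding sequence for poly(A) RNA. Assay, extract, line label, library kit and counted region therefore cannot be told apart in any difference between the assays. The text on treatment of the low phosphate samples repeats that of the controls, so titles decided which condition a sample belongs to. The series text calls them bioreplicates without saying whether they came from separate plantings, so p-values measure the spread between these libraries, which may be technical.

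Plants short of phosphate switch on a set of genes through the transcription factor PHR1, whose activity is held back by SPX proteins when phosphate is plentiful. The set includes uptake transporters of the PHT1 family, secreted phosphatases and nucleases that free phosphate, and enzymes that replace phospholipids by galactolipids and sulfolipids. The ubiquitin ligase PHO2 removes transporters and is itself a target of microRNA miR399, which the noncoding RNAs IPS1 and AT4 sequester. RNA that survives a single-strand nuclease can come from 2 transcripts of opposite strands that pair, from copying by RNA-dependent RNA polymerases, or from a transcript folded on itself. Such RNA is a substrate of Dicer-like enzymes, which cut it into small RNAs.

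One of the 8 libraries stands apart along the chromosomes, and it enters every dsRNA change below. In dsRNA low phosphate replicate 1, genes that lie past a point in the middle of chromosome 3, between AT3G41762 and AT3G42050, were lower than genes that lie before it. Relative to dsRNA low phosphate replicate 2, the median log2 difference after the point was 0.656 lower than before it, a ratio of 0.635. The lower side holds the rest of chromosome 3 and all of chromosomes 4 and 5 and of the organelles. Among the 12 pairs of libraries scanned, the 10 without this library had no step larger than 0.024 on the log2 scale. The median interaction was 0.134 over genes before the point and -0.229 over genes after it when all genes of a library shared 1 scaling factor, and 0.011 and 0.006 when each side was scaled separately. The cause of the step was not tested. Results are given with the libraries scaled as a whole. Where the call changes, they are also given with each side scaled separately, a setting chosen after seeing the data, and without this library. Total counts were 4683670 and 2735264 in the dsRNA low phosphate libraries and 8249514 and 3246810 in the dsRNA controls. The poly(A) libraries held 21415342 and 26722907 counts under low phosphate and 26746252 and 18262547 in controls.

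**Figure D1:**
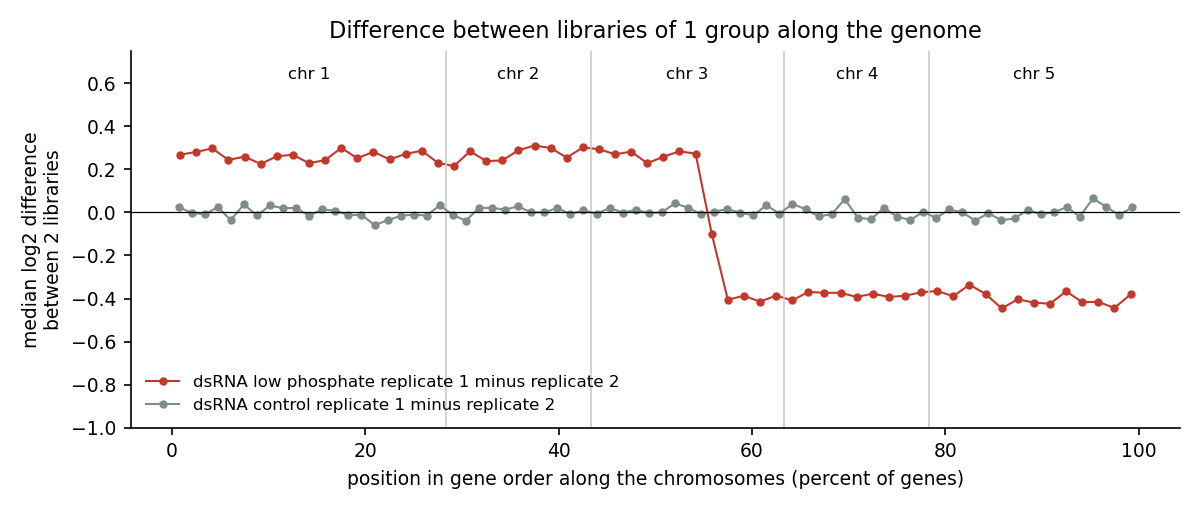
Median log2 difference between the 2 libraries of a group (vertical axis) in bins of genes in chromosome order (horizontal axis, percent of genes; grey vertical lines separate chromosomes 1 to 5). The red line, dsRNA low phosphate replicate 1 minus replicate 2, drops by 0.656 in the middle of chromosome 3, while the grey line, dsRNA control replicate 1 minus replicate 2, stays near 0.

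The low phosphate change was more often called in dsRNA than in poly(A) RNA when both were fitted together. In dsRNA 1708 genes rose, 9.98% of those tested, and 1129 fell, 6.60%. Of the rises 1194 lay before the step and 514 after it, and of the falls 255 lay before it and 874 after it. Scaled on each side of the step, 1936 genes rose and 963 fell in dsRNA. The dsRNA shares quoted beside the lists below are those of the libraries scaled as a whole, so they carry the step. In poly(A) RNA 330 genes rose, 1.93% of those tested, and 123 fell, 0.719%, together 2.65%. The interaction was above 0 for 347 genes, 2.03% of those tested, and below 0 for 101 genes, 0.590%. With library totals in place of TMM scaling the split of interaction calls was 270 above 0 and 132 below 0. Before the step 267 genes were called above 0 and 26 below it, of 9108 tested, and after the step 80 were called above 0 and 75 below it, of 8010 tested. Scaled on each side of the step, the calls were 280 above 0 and 52 below it before the point, and 222 above 0 and 47 below it after it. In all, 502 genes were then called above 0 (2.93%) and 99 below it (0.578%), 3.51% in all, and 398 of the 448 first calls were among them in the same direction. Without dsRNA low phosphate replicate 1 the calls were 135 above 0 (0.789%) and 16 below it (0.0935%), of which 126 and 15 were among the first calls. Calls also fell to 113 above 0 and 31 below it without dsRNA control replicate 1, and to 146 and 32 without dsRNA control replicate 2. They numbered 542 above 0 and 184 below it without poly(A) low phosphate replicate 2, and 471 and 154 without poly(A) low phosphate replicate 1.

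**Figure D2:**
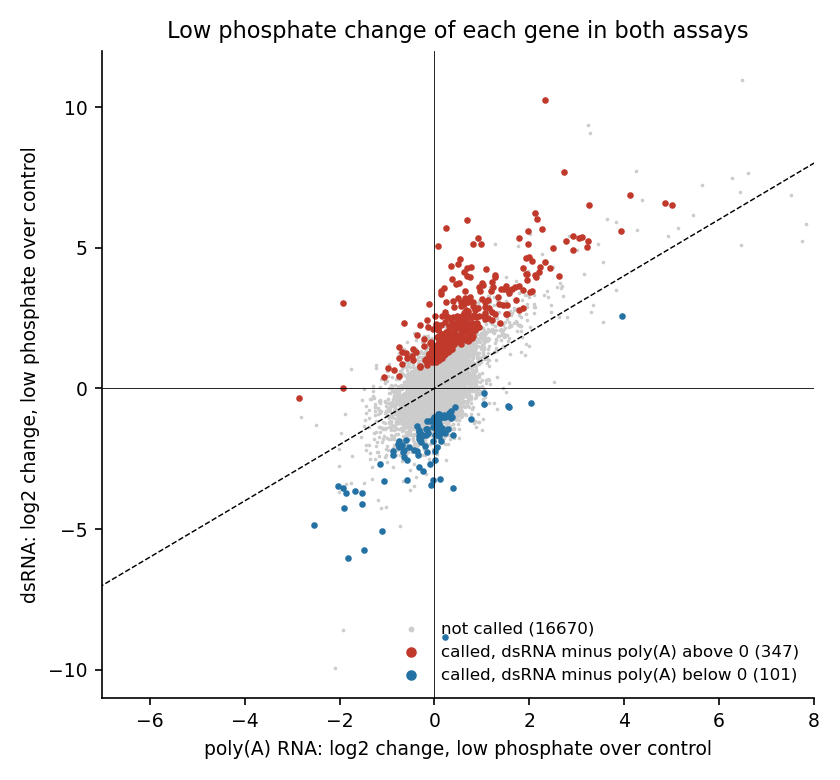
Log2 change under low phosphate in poly(A) RNA (horizontal axis) and in dsRNA (vertical axis) for each of the 17118 genes tested; the dashed line marks equal changes. Red points are the 347 genes called with an interaction above 0, blue points the 101 genes called below 0 and grey points the 16670 genes not called; most red points lie in the upper right, where both changes are positive.

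The interaction mostly separated genes whose dsRNA changed while their poly(A) RNA was not called, and genes that changed the same way in both. Of the 347 genes with an interaction above 0, 231 rose in dsRNA without a call in poly(A) RNA, 109 rose in both, 3 rose in dsRNA and fell in poly(A) RNA, and 4 fell in poly(A) RNA without a call in dsRNA. Of the 101 genes below 0, 77 fell in dsRNA without a call in poly(A) RNA, 18 fell in both, 4 rose in poly(A) RNA without a call in dsRNA, 1 rose in both and 1 was called in neither. A gene without a call in poly(A) RNA is not shown to be unchanged there. The median log2 change in poly(A) RNA was 0.30 over the 231 genes and -0.02 over the 77 genes, against -0.001 over all genes tested. Of the 330 genes that rose in poly(A) RNA, 322 had a positive change in dsRNA and 311 were called there. Their median log2 change was 2.34 in dsRNA and 1.38 in poly(A) RNA. Of the 123 genes that fell in poly(A) RNA, 113 had a negative change in dsRNA and 85 were called, with medians of -1.37 in dsRNA and -1.08 in poly(A) RNA. In the other direction, 311 of the 1708 genes that rose in dsRNA and 85 of the 1129 that fell there were called alike in poly(A) RNA. Across genes the log2 changes in dsRNA and poly(A) RNA had a Pearson correlation of 0.645 and a Spearman correlation of 0.424 (n = 17118 genes, which are not independent replicates).

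Transporters and regulators of the phosphate response mostly rose in both assays, and for many of them the rise was larger in dsRNA. Of the 21 tested members of the list, 15 rose and 2 fell in dsRNA, and 13 rose and 1 fell in poly(A) RNA. In all, 9 members had an interaction above 0 and 1 below 0, with a median interaction of 1.18 on the log2 scale, against -0.03 over all genes tested. Over all genes, 9.98% rose and 6.60% fell in dsRNA, and 1.93% rose and 0.719% fell in poly(A) RNA. The interaction was above 0 for 2.03% of all genes and below 0 for 0.59%. In CPM, normalized counts relative to library size, PHT1;9, a root phosphate transporter, had, in the dsRNA libraries, 113 and 97.0 CPM under low phosphate, against 2.52 and 3.94 CPM in controls. In the poly(A) libraries it had 46.7 and 49.7 CPM under low phosphate, against 11.2 and 13.3 CPM in controls. The groups did not overlap in either assay, and the log2 change was 5.15 ± 0.27 in dsRNA and 1.98 ± 0.19 in poly(A) RNA, an interaction of 3.17 ± 0.34 (SE, edgeR adjusted p = 3.88e-05). PHT1;8, its close relative, had, as dsRNA, 108 and 75.8 CPM under low phosphate, against 0.445 and 2.36 CPM in controls and, as poly(A) RNA, 33.1 and 33.8 CPM under low phosphate, against 3.15 and 3.88 CPM in controls, with an interaction of 3.27 ± 0.53 (SE, edgeR adjusted p = 0.00139). For PHT1;4, an uptake transporter of the root surface, the dsRNA libraries held 1039 and 886 CPM under low phosphate, against 54.3 and 44.5 CPM in controls. Its poly(A) RNA stood at 344 and 334 CPM under low phosphate, against 54.3 and 70.8 CPM in controls. Low phosphate libraries were higher than control libraries in both assays, and the PHT1;4 interaction was 1.83 ± 0.27 (SE, edgeR adjusted p = 0.000541).

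SPX1, a phosphate sensor that restrains PHR1, had, as dsRNA, 689.9 and 997 CPM under low phosphate, against 16.5 and 19.3 CPM in controls. Its poly(A) RNA was 430 and 601 CPM under low phosphate, against 36.6 and 228 CPM in controls. The poly(A) control libraries of SPX1 differ from each other by more than those of PHT1;9, and the interaction was 3.62 ± 0.69 (SE, edgeR adjusted p = 0.00496). It was 1.81 without poly(A) control replicate 2, which is lower by over 1.5 times. SPX2 and SPX3, other members of that family, had interactions of 1.92 ± 0.34 (SE, edgeR adjusted p = 0.0026) and 1.73 ± 0.45 (SE, edgeR adjusted p = 0.045). PHO1;H1, a phosphate exporter related to PHO1, had an interaction of 1.63 ± 0.28 (SE, edgeR adjusted p = 0.00225). PHF1, which helps PHT1 transporters leave the endoplasmic reticulum, had one of 1.34 ± 0.27 (SE, edgeR adjusted p = 0.00666). G3Pp1, a glycerol-3-phosphate permease family member, had one of 1.90 ± 0.35 (SE, edgeR adjusted p = 0.00393). The member below 0 was PHT1;2, with, as dsRNA, 627 and 718 CPM under low phosphate, against 109.9 and 115 CPM in controls and, as poly(A) RNA, 48.3 and 38.9 CPM under low phosphate, against 3.19 and 2.36 CPM in controls. PHT1;2 rose in both assays, by a log2 change of 2.58 ± 0.19 in dsRNA and 3.95 ± 0.22 in poly(A) RNA, and its interaction was -1.37 ± 0.28 (SE, edgeR adjusted p = 0.00791). PHT1;1 and PHT1;2 are nearly identical copies, so the way reads were divided between them in each table makes both values uncertain. SPX1 (0.126), SPX2 (0.104), SPX3 (0.228) and PHT1;2 (0.0648) missed the threshold without dsRNA low phosphate replicate 1 (edgeR adjusted p in brackets). SPX1 (0.0968), SPX3 (0.114) and G3Pp1 (0.0632) missed the threshold without dsRNA low phosphate replicate 2. SPX1 (0.0985), PHT1;8 (0.131), SPX3 (0.0671) and PHT1;2 (0.0659) missed the threshold without dsRNA control replicate 1. SPX1 (0.0504), SPX3 (0.238), PHT1;2 (0.0723), PHF1 (0.0874) and G3Pp1 (0.0798) missed the threshold without dsRNA control replicate 2. SPX3 (0.276) missed the threshold without poly(A) control replicate 2. Without dsRNA control replicate 1 the interaction was 2.03 for PHT1;8 and 2.79 for SPX3, and that of SPX3 was 0.995 without poly(A) control replicate 2. Leaving out poly(A) control replicate 2 also lowered the interaction of SPX1, as given above, and of phosphate genes named below. The interaction went from 3.55 to 2.24 for GDPD1, from 2.68 to 1.78 for PAP17 and from 1.58 to 1.01 for GDPD2. Those of IPS1 and PEPC1 rose instead, to 1.98 and 1.25. The calls of PHT1;9, PHT1;4 and PHO1;H1 passed in each of these fits, and SPX3 missed the threshold when scaled on each side of the step (edgeR adjusted p = 0.092).

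Other regulators of the same system showed no called interaction. PHO1, which loads phosphate into the xylem, had, as dsRNA, 397 and 342 CPM under low phosphate, against 358 and 417 CPM in controls and, as poly(A) RNA, 365 and 381 CPM under low phosphate, against 411 and 388 CPM in controls, with an interaction of 0.03 ± 0.24 (SE, edgeR adjusted p = 0.968). PHO2 fell in both assays, with, as dsRNA, 278 and 238 CPM under low phosphate, against 648 and 781 CPM in controls and, as poly(A) RNA, 303 and 273 CPM under low phosphate, against 560.2 and 526 CPM in controls, and its interaction was -0.55 ± 0.25 (SE, edgeR adjusted p = 0.294). PHT1;1, the most used uptake transporter, had, as dsRNA, 838 and 1013 CPM under low phosphate, against 319 and 369.6 CPM in controls and, as poly(A) RNA, 417 and 503 CPM under low phosphate, against 323 and 268 CPM in controls. It rose in dsRNA (edgeR adjusted p = 1.65e-05) with an interaction of 0.79 ± 0.26 (SE, edgeR adjusted p = 0.128), which passed when scaled on each side of the step (edgeR adjusted p = 0.0139). IPS1, the noncoding RNA that binds miR399, had, as dsRNA, 220.4 and 241 CPM under low phosphate, against 1.19 and 1.58 CPM in controls and, as poly(A) RNA, 142 and 122 CPM under low phosphate, against 2.86 and 0.210 CPM in controls. Its interaction was 1.18 ± 0.82 (SE, edgeR adjusted p = 0.539), and turned to -1.73 without poly(A) control replicate 1. Without poly(A) control replicate 2 it was 1.98 and was called (edgeR adjusted p = 0.00985).

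Phosphatases, nucleases and enzymes of lipid replacement formed the list with the highest share of calls: 20 of 26 tested members had an interaction above 0 and none below, and all 26 had a positive value. The list also holds the phosphoenolpyruvate carboxylase PPC1 and its kinases PPCK1 and PPCK2. Over all genes, 9.98% rose in dsRNA, 1.93% rose in poly(A) RNA and 2.03% had an interaction above 0. In dsRNA 25 of the 26 rose, and in poly(A) RNA 19 rose, with median log2 changes of 3.95 in dsRNA and 1.66 in poly(A) RNA. The median interaction was 1.6, and 21 members were called when scaled on each side of the step and 12 without dsRNA low phosphate replicate 1. NPC4, a phospholipase C that breaks down phosphatidylcholine, had, as dsRNA, 552 and 490.3 CPM under low phosphate, against 14.1 and 13.0 CPM in controls. Its poly(A) libraries held 89.5 and 85.6 CPM under low phosphate, against 10.4 and 7.92 CPM in controls. Both assays separated low phosphate from control libraries, and the NPC4 interaction was 2.00 ± 0.27 (SE, edgeR adjusted p = 0.000333). PLDP2, a phospholipase D of the same route, had, as dsRNA, 378 and 310.1 CPM under low phosphate, against 10.1 and 7.09 CPM in controls and, as poly(A) RNA, 42.3 and 45.3 CPM under low phosphate, against 5.2 and 7.66 CPM in controls, an interaction of 2.47 ± 0.32 (SE, edgeR adjusted p = 0.00016). Of the enzymes that make sulfolipid, SQD2 had, as dsRNA, 1715 and 2552 CPM under low phosphate, against 76.3 and 62.6 CPM in controls and, as poly(A) RNA, 250.1 and 276 CPM under low phosphate, against 26.7 and 42.8 CPM in controls. Its interaction was 2.00 ± 0.33 (SE, edgeR adjusted p = 0.00135) and that of SQD1, which supplies the sulfosugar, was 1.92 ± 0.29 (SE, edgeR adjusted p = 0.000852). The galactolipid synthases MGD2, DGD1 and DGD2 had interactions of 2.28, 1.29 and 1.69, with edgeR adjusted p-values of 0.00266, 0.00552 and 0.00295.

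Among purple acid phosphatases, which release phosphate from organic esters, PAP24 had, as dsRNA, 41.4 and 56.6 CPM under low phosphate, against 1.48 and 1.18 CPM in controls. Its poly(A) RNA was 2.80 and 2.79 CPM under low phosphate, against 1.25 and 1.99 CPM in controls, where the groups lay close together and no change was called (edgeR adjusted p = 0.282). The PAP24 interaction was 4.31 ± 0.53 (SE, edgeR adjusted p = 0.000117). PAP12, PAP17 and PAP22 had interactions of 1.63, 2.68 and 2.42, with edgeR adjusted p-values of 0.000575, 0.00225 and 0.000541. RNS1, a secreted ribonuclease, had, as dsRNA, 11.2 and 10.8 CPM under low phosphate, against 0 and 0 CPM in controls, where both controls were at 0 counts. Taking 3 counts in each control library as the floor, RNS1 dsRNA was at least 13.6-fold higher under low phosphate; its poly(A) RNA had 2.08 and 2.38 CPM under low phosphate, against 0.366 and 0.525 CPM in controls. PS2, a phosphate starvation-induced phosphatase, had, as dsRNA, 2697 and 2229 CPM under low phosphate, against 28.0 and 25.2 CPM in controls and, as poly(A) RNA, 145 and 143 CPM under low phosphate, against 4.47 and 4.36 CPM in controls, with an interaction of 1.5 ± 0.28 (SE, edgeR adjusted p = 0.00365). PEPC1, a related phosphatase, had, as dsRNA, 2706 and 2417 CPM under low phosphate, against 25.4 and 12.6 CPM in controls and, as poly(A) RNA, 93.7 and 103 CPM under low phosphate, against 1.79 and 0.262 CPM in controls. Its interaction of 0.54 ± 0.53 (SE, edgeR adjusted p = 0.676) was not called and turned to -1.48 without poly(A) control replicate 1. Other called members were PAP10, BFN1, GDPD2, PPCK1, PPCK2 and PPC1, with interactions between 1.17 and 1.58. GDPD1, also a called member, is given below with the gene it overlaps. RNS1 (0.115), PAP10 (0.0812), PAP17 (0.121), BFN1 (0.145), GDPD2 (0.126), PPCK1 (0.0554) and PPCK2 (0.113) missed the threshold without dsRNA low phosphate replicate 1 (edgeR adjusted p in brackets). RNS1 (0.0549) and GDPD2 (0.133) missed the threshold without dsRNA low phosphate replicate 2. RNS1 (0.29), PS2 (0.0568), MGD2 (0.135), DGD1 (0.0588), PAP10 (0.085), BFN1 (0.157), GDPD2 (0.175), PPCK1 (0.121), PPCK2 (0.14) and PPC1 (0.0663) missed the threshold without dsRNA control replicate 1. RNS1 (0.0868), PS2 (0.0621), DGD1 (0.0631), PAP10 (0.0504), GDPD2 (0.117), PPCK1 (0.0504), PPCK2 (0.117) and PPC1 (0.0504) missed the threshold without dsRNA control replicate 2. GDPD2 (0.0637) missed the threshold without poly(A) control replicate 2. PPCK2 (0.0517) missed the threshold without poly(A) low phosphate replicate 2. Without poly(A) control replicate 2 the interaction was 1.78 for PAP17 and 1.01 for GDPD2. The calls of NPC4, PLDP2, SQD1, SQD2, DGD2, PAP12, PAP22 and PAP24 passed in each of these fits.

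**Figure D3:**
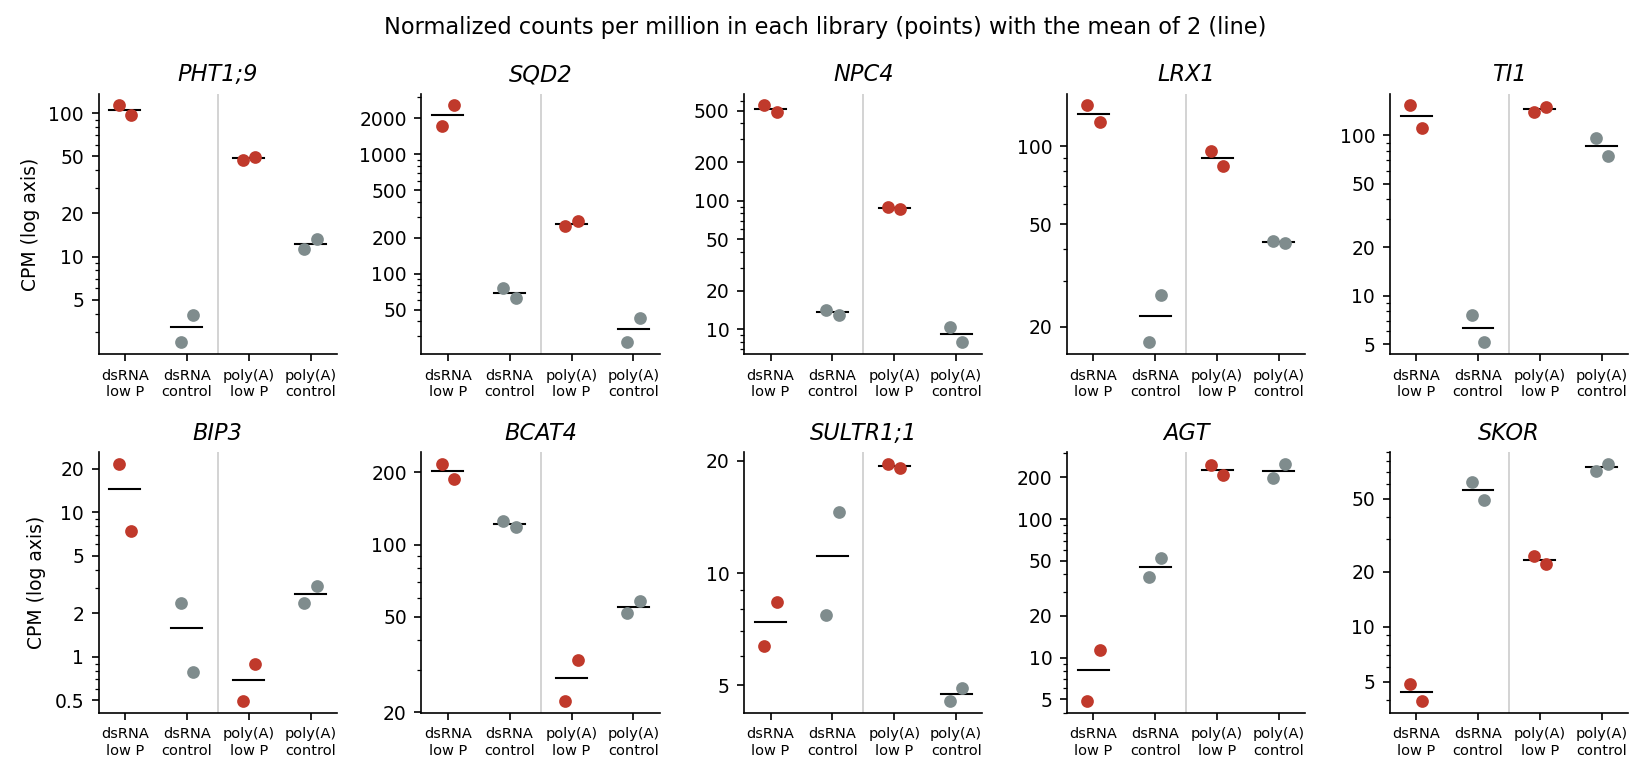
CPM, normalized counts relative to library size (vertical log axes), of 10 genes in each library; red points are low phosphate and grey points control libraries, dsRNA left and poly(A) right of the grey line, with black lines at the mean of 2 libraries. PHT1;9, SQD2, NPC4, LRX1 and TI1 had interactions above 0, BIP3 and BCAT4 were higher in dsRNA and lower in poly(A) RNA under low phosphate, and SULTR1;1, AGT and SKOR had interactions below 0.

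Root hair genes, which mark the cells that take up phosphate, mostly rose in both assays, with a few called interactions. Of the 20 tested, 18 rose in dsRNA and 14 in poly(A) RNA, with median log2 changes of 1.87 in dsRNA and 1.03 in poly(A) RNA. Over all genes, 9.98% rose in dsRNA, 1.93% rose in poly(A) RNA and 2.03% had an interaction above 0. The interaction was above 0 at the threshold for 4 of 20 members, 7 when scaled on each side of the step and 3 without dsRNA low phosphate replicate 1, and its median was 0.81. LRX1, a wall protein of growing hairs, had, as dsRNA, 144 and 124 CPM under low phosphate, against 17.4 and 26.4 CPM in controls and, as poly(A) RNA, 96.4 and 83.8 CPM under low phosphate, against 43.1 and 42.4 CPM in controls. The LRX1 interaction was 1.6 ± 0.28 (SE, edgeR adjusted p = 0.00228). PRP3, a proline-rich wall protein, had, as dsRNA, 172 and 203 CPM under low phosphate, against 30.1 and 30.3 CPM in controls and, as poly(A) RNA, 240.2 and 199 CPM under low phosphate, against 72.5 and 82.7 CPM in controls, an interaction of 1.13 ± 0.25 (SE, edgeR adjusted p = 0.0172). RHS10 and RHS19, further root hair genes, had interactions of 1.40 ± 0.31 (SE, edgeR adjusted p = 0.0172) and 1.01 ± 0.24 (SE, edgeR adjusted p = 0.0267). LRX1 (0.0872), RHS10 (0.165), PRP3 (0.164) and RHS19 (0.175) missed the threshold without dsRNA control replicate 1 (edgeR adjusted p in brackets). RHS10 (0.125) missed the threshold without dsRNA low phosphate replicate 1. RHS10 (0.0822), PRP3 (0.117) and RHS19 (0.161) missed the threshold without dsRNA control replicate 2. RHS19 (0.0697) missed the threshold without poly(A) control replicate 2. The 5 defining root hair markers summed to 630.3 and 655.6 CPM under low phosphate, against 113.9 and 115.4 CPM in controls, in dsRNA. Their poly(A) sums were 654.0 and 591.9 CPM under low phosphate, against 234.9 and 261.1 CPM in controls. In such bulk samples more cells of a type and more RNA per cell cannot be told apart, and the part of cell type composition in the other results was not tested. Markers of the other root tissues were present in all libraries: 4 of the stele summed to between 436.4 and 562.5 CPM. Most of that sum was PHO1, and other stele markers moved apart. In dsRNA SKOR had 4.87 and 3.94 CPM under low phosphate, against 62.1 and 49.2 CPM in controls. The stele marker SUC2 had 90.3 and 67.4 CPM there under low phosphate, against 20.6 and 22.9 CPM in controls. In dsRNA, 5 endodermis markers summed to 354.5 and 287.4 CPM under low phosphate, against 196.7 and 191.9 CPM in controls. Their poly(A) sums were 648.3 and 681.0 CPM under low phosphate, against 560.5 and 511.9 CPM in controls, so the sums were higher in both assays. The endodermis marker MYB36 went the other way in dsRNA, with 14.6 and 13.8 CPM under low phosphate, against 19.0 and 17.3 CPM in controls. The 3 meristem markers summed to 14.6 and 16.7 CPM under low phosphate, against 20.5 and 20.5 CPM in controls, in dsRNA. Their poly(A) sums were 16.6 and 16.1 CPM under low phosphate, against 15.6 and 17.3 CPM in controls, with overlapping groups. The 5 green tissue markers summed to 75.0 and 52.1 CPM under low phosphate, against 97.4 and 97.7 CPM in controls, in dsRNA. In poly(A) RNA they summed to 550.2 and 277.0 CPM under low phosphate, against 205.6 and 507.8 CPM in controls, with overlapping groups.

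The largest interactions above 0 included genes outside the phosphate lists. TI1, a trypsin inhibitor of the defensin type, had, as dsRNA, 154 and 112 CPM under low phosphate, against 7.56 and 5.12 CPM in controls. Its poly(A) libraries held 139 and 151 CPM under low phosphate, against 96.0 and 74.2 CPM in controls. TI1 rose in both assays, by a log2 change of 4.31 ± 0.26 in dsRNA and 0.77 ± 0.19 in poly(A) RNA, an interaction of 3.54 ± 0.32 (SE, edgeR adjusted p = 3.42e-06). AT5G38910 had, as dsRNA, 69.9 and 37.9 CPM under low phosphate, against 3.71 and 0.394 CPM in controls and, as poly(A) RNA, 114 and 126 CPM under low phosphate, against 106 and 81.1 CPM in controls, an interaction of 3.99 ± 0.47 (SE, edgeR adjusted p = 8.81e-05). HOL2, a methyltransferase, had, as dsRNA, 57.8 and 33.5 CPM under low phosphate, against 0.148 and 0.394 CPM in controls and, as poly(A) RNA, 3.92 and 3.86 CPM under low phosphate, against 0.366 and 0.840 CPM in controls. The dsRNA controls of HOL2 rest on 1 count each; the ratio of summed counts was 225 with an exact 95% counting interval of 61.7 to 1870. A further 3 genes had 1 count in all in the dsRNA controls. Their ratios were 59.3 (9.95 to 2410) for CYP71B35, a cytochrome P450, 68.1 (11.5 to 2760) for AT2G37870 and 80.3 (13.7 to 3240) for PLAT3. PLAT3 rose in poly(A) RNA too, with 4.96 and 6.80 CPM under low phosphate, against 1.14 and 1.57 CPM in controls. CYP71B35 had 0.812 and 0.594 CPM under low phosphate, against 0.843 and 0.262 CPM in controls there and AT2G37870 had 2.25 and 3.23 CPM under low phosphate, against 1.47 and 1.99 CPM in controls, with no call for either. CYP71B35 (0.242), AT2G37870 (0.0812), HOL2 (0.0723) and PLAT3 (0.138) missed the threshold without dsRNA low phosphate replicate 1 (edgeR adjusted p in brackets). CYP71B35 (0.07) and PLAT3 (0.0735) missed the threshold without dsRNA low phosphate replicate 2. CYP71B35 (0.382), AT2G37870 (0.112), HOL2 (0.127) and PLAT3 (0.276) missed the threshold without dsRNA control replicate 1. CYP71B35 (0.0787) and PLAT3 (0.152) missed the threshold without dsRNA control replicate 2. CYP71B35 (0.199) missed the threshold without poly(A) control replicate 1. The calls of TI1 and AT5G38910 passed in each of these fits, and the interaction of AT5G38910 was 6.73 without dsRNA control replicate 1, where the other control holds 1 count.

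Some of the largest interactions were of genes that overlap a gene on the other strand. AT3G02030 lies on the plus strand at chr3:344908-348847 and GDPD1, a glycerophosphodiester phosphodiesterase, on the minus strand at chr3:348167-350010 (TAIR10, spans from the first to the last UTR position), so that their 3′ ends share 681 bases. AT3G02030 had, as dsRNA, 592 and 578 CPM under low phosphate, against 19.4 and 14.6 CPM in controls. In poly(A) libraries, counted over coding sequence, it had 2.03 and 1.93 CPM under low phosphate, against 1.94 and 1.78 CPM in controls. The dsRNA groups lie far apart and the poly(A) groups overlap, with an interaction of 4.98 ± 0.32 (SE, edgeR adjusted p = 2.59e-08), a call that passed in each fit that left out 1 library. GDPD1 had, as dsRNA, 1313 and 1147 CPM under low phosphate, against 34.7 and 24.8 CPM in controls and, as poly(A) RNA, 439 and 552 CPM under low phosphate, against 56.4 and 231 CPM in controls, an interaction of 3.55 ± 0.55 (SE, edgeR adjusted p = 0.000901), and of 2.24 without poly(A) control replicate 2. GDPD1 (0.088), AT1G72070 (0.0584) and ROC4 (0.0663) missed the threshold without dsRNA low phosphate replicate 1 (edgeR adjusted p in brackets). AT1G72070 (0.0696) missed the threshold without dsRNA control replicate 1. The dsRNA table counts whole genes and no source used here gives its strand setting, so dsRNA reads of AT3G02030 and GDPD1 cannot be told apart where they overlap. The overlapping pair AT1G72060 and AT1G72070, which share 391 bases, had interactions of 3.59 ± 0.54 (SE, edgeR adjusted p = 0.00072) and 2.75 ± 0.50 (SE, edgeR adjusted p = 0.00301). In the pair of ROC4, a cyclophilin, and AT3G62040, which share 103 bases, both were below 0, at -2.05 ± 0.33 (SE, edgeR adjusted p = 0.00118) and -1.57 ± 0.26 (SE, edgeR adjusted p = 0.00135). Of the genes whose span the files give, 27 of 302 with an interaction above 0 (8.94%) and 10 of 79 below 0 (12.7%) overlapped a gene on the other strand, against 1986 of 15068 genes tested (13.2%).

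The deposited table of small RNA loci, a single set of totals over libraries that no source used here names, was laid over the same gene spans. A small RNA locus overlapped 160 of 302 genes with an interaction above 0 (53.0%), 29 of 79 below 0 (36.7%) and 4541 of 15068 tested (30.1%). The dsRNA level of these sets differed too, with median log2 CPM of 5.51 over the 347 genes above 0, 4.44 over the 101 below 0 and 4.48 over all tested, and its part in the overlap was not tested. Loci whose main length was 21 to 24 nucleotides, the sizes Dicer-like enzymes cut, overlapped 21 of 302 genes above 0 (6.95%), 4 of 79 below 0 (5.06%) and 771 of 15068 tested (5.12%). The most abundant small RNA of 4 such loci at called genes is shown, 5′ to 3′ as deposited, with its first base, which guides sorting into Argonaute proteins, in capitals.
AT1G72060 and AT1G72070: Augacccggugaaucgguugaacc
DGD2: Aaauggacuagagaaucucuuuau
NAS1: Auuggagacugcuauuuagagaaa
SULTR1;1: Agccaguuucuugagagaacucuc
All 4 are 24 nucleotides long and begin with A. The locus of the overlapping pair (chr1:27117724-27118832, TAIR10) held 5521 reads, of which 2399 were this sequence. The DGD2 locus (chr4:236357-238090) held 3352 reads with 589 of its sequence, and the NAS1 locus (chr5:1457349-1458835) 1859 reads with 192. The SULTR1;1 locus shown (chr4:5504844-5505111) held 428 reads with 70, and 2 others lie in the same gene. These genes were chosen after their values were seen, and the totals are not split by library. The only small RNA sample listed in the series is a control, so these totals do not show small RNAs under low phosphate.

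Interactions below 0 were fewer, and of the 12 largest by the naming rule, which takes at most 3 genes without a symbol and so passes over AT5G51110 and others, all but SULTR1;1 were genes whose dsRNA fell under low phosphate. AGT, a serine:glyoxylate aminotransferase of photorespiration, had, as dsRNA, 4.87 and 11.3 CPM under low phosphate, against 38 and 52.0 CPM in controls. Its poly(A) libraries held 245 and 209 CPM under low phosphate, against 197 and 251 CPM in controls. The dsRNA groups do not overlap and the poly(A) groups do, with an interaction of -2.57 ± 0.38 (SE, edgeR adjusted p = 0.000549). GSTF14, a glutathione transferase, fell in both assays, with, as dsRNA, 7.60 and 5.42 CPM under low phosphate, against 174 and 218 CPM in controls and, as poly(A) RNA, 22.8 and 16.5 CPM under low phosphate, against 125 and 103 CPM in controls, an interaction of -2.32 ± 0.34 (SE, edgeR adjusted p = 0.000594). SKOR, the potassium channel that releases potassium into the xylem, had, as dsRNA, 4.87 and 3.94 CPM under low phosphate, against 62.1 and 49.2 CPM in controls and, as poly(A) RNA, 24.4 and 22 CPM under low phosphate, against 70.7 and 77.7 CPM in controls. It fell in both assays and its interaction was -1.97 ± 0.34 (SE, edgeR adjusted p = 0.00228). AT3G29410 had, as dsRNA, 2.13 and 2.95 CPM under low phosphate, against 26.1 and 18.5 CPM in controls and, as poly(A) RNA, 12.7 and 10.4 CPM under low phosphate, against 10.5 and 10.8 CPM in controls, an interaction of -3.33 ± 0.45 (SE, edgeR adjusted p = 0.0003). UMAMIT29 and UMAMIT17, amino acid exporters, had interactions of -4.27 ± 0.77 (SE, edgeR adjusted p = 0.00309) and -2.67 ± 0.44 (SE, edgeR adjusted p = 0.00139). SLAH1, an anion channel relative, and AT4G07820 had interactions of -4.22 ± 0.80 (SE, edgeR adjusted p = 0.0047) and -3.95 ± 0.61 (SE, edgeR adjusted p = 0.000901). Low phosphate dsRNA of AT4G07820 had 0 and 4 counts, and its interaction was -2.58 without replicate 1 of that group. The dsRNA of UMAMIT29 and of SLAH1 rests on 2 counts in all under low phosphate. Their dsRNA ratios of summed counts were 0.0191 (exact 95% counting interval 0.00229 to 0.0699) and 0.0154 (0.00186 to 0.0564).

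RPP13 and HR2, both of disease resistance gene families, had interactions of -3.22 ± 0.57 (SE, edgeR adjusted p = 0.00266) and -2.69 ± 0.59 (SE, edgeR adjusted p = 0.0139), with neither called in poly(A) RNA. RPP13 had, as dsRNA, 1.22 and 1.48 CPM under low phosphate, against 11.9 and 13.8 CPM in controls and, as poly(A) RNA, 9.43 and 6.61 CPM under low phosphate, against 9.27 and 7.08 CPM in controls. HR2 had, as dsRNA, 0.912 and 1.97 CPM under low phosphate, against 8.60 and 12.6 CPM in controls and, as poly(A) RNA, 7.53 and 8.32 CPM under low phosphate, against 10.5 and 8.19 CPM in controls. In both genes the dsRNA groups were apart and the poly(A) groups overlapped. Also among the 12 taken by that rule were pde191, with an interaction of -3.36 ± 0.74 (SE, edgeR adjusted p = 0.0148), and AT1G47820, with -3.92 ± 0.93 (SE, edgeR adjusted p = 0.0249). In the low phosphate dsRNA libraries AT1G47820 had 2 counts in all and pde191 had 4 and 0. Fitted sizes of AT4G07820, SLAH1 and pde191 are not given where the 1 low phosphate dsRNA library left has 0 counts. UMAMIT29 (0.201), SLAH1 (0.117), AT4G07820 (0.0576), AT1G47820 (0.242), pde191 (0.0904), RPP13 (0.104), HR2 (0.205), UMAMIT17 (0.0812) and AGT (0.0513) missed the threshold without dsRNA low phosphate replicate 1 (edgeR adjusted p in brackets). UMAMIT29 (0.0603), SLAH1 (0.0704), AT1G47820 (0.0835), pde191 (0.0876) and UMAMIT17 (0.0527) missed the threshold without dsRNA low phosphate replicate 2. AT1G47820 (0.169) and pde191 (0.14) missed the threshold without dsRNA control replicate 1. AT1G47820 (0.0721) and HR2 (0.0773) missed the threshold without dsRNA control replicate 2. The calls of GSTF14, SKOR and AT3G29410 passed in each of these fits.

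In all, 3 genes were called in opposite directions in the assays. BIP3, a stress-induced chaperone of the endoplasmic reticulum, had, as dsRNA, 21.6 and 7.38 CPM under low phosphate, against 2.37 and 0.788 CPM in controls. In poly(A) RNA it had 0.496 and 0.891 CPM under low phosphate, against 2.35 and 3.10 CPM in controls. It was higher under low phosphate in dsRNA and lower in poly(A) RNA, an interaction of 4.95 ± 0.75 (SE, edgeR adjusted p = 0.00072), with an edgeR adjusted p of 0.0815 without dsRNA low phosphate replicate 1. BCAT4, which starts the chain elongation of methionine for glucosinolates, had, as dsRNA, 217 and 187 CPM under low phosphate, against 126 and 119 CPM in controls and, as poly(A) RNA, 22.3 and 33.1 CPM under low phosphate, against 51.8 and 58.2 CPM in controls. Its interaction was 1.71 ± 0.27 (SE, edgeR adjusted p = 0.000965). GH9B8, a glycosyl hydrolase of the endoglucanase family, had, as dsRNA, 84.2 and 78.8 CPM under low phosphate, against 54.9 and 49.6 CPM in controls and, as poly(A) RNA, 27.4 and 36.0 CPM under low phosphate, against 59.5 and 54.5 CPM in controls. Its interaction was 1.48 ± 0.26 (SE, edgeR adjusted p = 0.00243). The interactions of BCAT4 and GH9B8 passed when any 1 library was left out and when scaled on each side of the step. With that scaling the rise of GH9B8 in dsRNA, 0.51 on the log2 scale, was no longer called (edgeR adjusted p = 0.0555), so its opposite calls do not hold there.

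Other nutrient genes moved in both directions. Over all genes, 9.98% rose and 6.60% fell in dsRNA, and 1.93% rose and 0.719% fell in poly(A) RNA. The interaction was above 0 for 2.03% of all genes and below 0 for 0.59%. Of 26 iron homeostasis genes tested, 13 fell and 3 rose in dsRNA and 6 fell in poly(A) RNA; 1 had an interaction above 0 and 3 below 0, with a median of -0.26. Scaled on each side of the step the iron list had 1 above 0 and 2 below 0, with a median of -0.06. NAS1, a nicotianamine synthase, had, as dsRNA, 30.7 and 35.0 CPM under low phosphate, against 347 and 381 CPM in controls and, as poly(A) RNA, 54.7 and 88.1 CPM under low phosphate, against 289 and 297 CPM in controls. It fell in both, with an interaction of -1.44 ± 0.30 (SE, edgeR adjusted p = 0.00896). AT3G12900 fell in both as well, with an interaction of -2.35 ± 0.43 (SE, edgeR adjusted p = 0.00321). VTL2, a vacuolar iron transporter relative, had, as dsRNA, 20.7 and 11.8 CPM under low phosphate, against 6.08 and 5.91 CPM in controls and, as poly(A) RNA, 18.4 and 21.8 CPM under low phosphate, against 37.6 and 29.4 CPM in controls, an interaction of 2.22 ± 0.39 (SE, edgeR adjusted p = 0.0024). Among 16 nitrogen genes, 3 rose and 6 fell in dsRNA and 4 fell in poly(A) RNA, and 1 interaction was called each way. Scaled on each side of the step the nitrogen list had 1 above 0 and 2 below 0. NRT1.5, which loads nitrate into the xylem, had, as dsRNA, 453 and 362 CPM under low phosphate, against 1541 and 1654 CPM in controls and, as poly(A) RNA, 991 and 828 CPM under low phosphate, against 1784 and 1312 CPM in controls, an interaction of -1.20 ± 0.28 (SE, edgeR adjusted p = 0.0216). AMT2, an ammonium transporter, had an interaction of 1.23 ± 0.32 (SE, edgeR adjusted p = 0.041). Among 17 sulfate genes, 10 fell and 2 rose in dsRNA and 4 fell and 2 rose in poly(A) RNA, with 2 interactions above 0, 1 below 0 and a median of -0.64. Scaled on each side of the step the sulfate list had 1 above 0 and 2 below 0, with a median of -0.52.

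SULTR1;1, a high-affinity sulfate transporter of the root surface, had, as dsRNA, 6.38 and 8.37 CPM under low phosphate, against 7.71 and 14.6 CPM in controls. Its poly(A) RNA was 19.6 and 19.2 CPM under low phosphate, against 4.54 and 4.93 CPM in controls. It rose in poly(A) RNA (edgeR adjusted p = 4.06e-05) and was not called in dsRNA (edgeR adjusted p = 0.352), an interaction of -2.56 ± 0.44 (SE, edgeR adjusted p = 0.00217). Its dsRNA groups overlapped and its poly(A) groups did not. SULTR3;4, a member of the sulfate transporter family, had, as dsRNA, 91.8 and 79.2 CPM under low phosphate, against 28.9 and 31.9 CPM in controls and, as poly(A) RNA, 13.6 and 21.6 CPM under low phosphate, against 14.5 and 26.9 CPM in controls, an interaction of 1.73 ± 0.37 (SE, edgeR adjusted p = 0.0119). SULTR1;3, a sulfate transporter of the phloem, had, as dsRNA, 45.3 and 52.7 CPM under low phosphate, against 1.19 and 1.18 CPM in controls and, as poly(A) RNA, 8.39 and 9.36 CPM under low phosphate, against 1.47 and 0.577 CPM in controls. Its interaction of 2.31 ± 0.58 (SE, edgeR adjusted p = 0.0343) missed the threshold when scaled on each side of the step (edgeR adjusted p = 0.0712) and was 1.46 without poly(A) control replicate 1. SULTR1;1 (0.0815), VTL2 (0.109), AT3G12900 (0.12), NAS1 (0.139), NRT1.5 (0.0576), AMT2 (0.22), SULTR3;4 (0.188) and SULTR1;3 (0.155) missed the threshold without dsRNA low phosphate replicate 1 (edgeR adjusted p in brackets). AT3G12900 (0.0788), NRT1.5 (0.0694), SULTR3;4 (0.0691) and SULTR1;3 (0.0977) missed the threshold without dsRNA low phosphate replicate 2. NAS1 (0.0568), NRT1.5 (0.126), AMT2 (0.224), SULTR3;4 (0.128) and SULTR1;3 (0.291) missed the threshold without dsRNA control replicate 1. NAS1 (0.0818), NRT1.5 (0.152), AMT2 (0.16), SULTR3;4 (0.0706) and SULTR1;3 (0.12) missed the threshold without dsRNA control replicate 2. NRT1.5 (0.053) missed the threshold without poly(A) low phosphate replicate 1. NRT1.5 (0.118) missed the threshold without poly(A) control replicate 2. AMT2 (0.135) and SULTR1;3 (0.398) missed the threshold without poly(A) control replicate 1. Without dsRNA low phosphate replicate 1 no member of the iron, nitrogen or sulfate lists was called by edgeR.

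The genes that make and act on small RNAs showed no called change. Of 18 tested members of the RNA silencing machinery, 0 were called in dsRNA, in poly(A) RNA or in the interaction by edgeR, DESeq2 or limma voom, and 0 had an unadjusted p under 0.05 in any of these comparisons. The median interaction was 0.00. RDR6, an RNA-dependent RNA polymerase, had, as dsRNA, 23.1 and 29.5 CPM under low phosphate, against 32.9 and 39.0 CPM in controls and, as poly(A) RNA, 40.5 and 39.2 CPM under low phosphate, against 42.1 and 37.8 CPM in controls, an interaction of -0.45 ± 0.28 (SE, edgeR adjusted p = 0.48). Over all genes, 9.98% rose and 6.60% fell in dsRNA, 1.93% rose and 0.719% fell in poly(A) RNA, and 2.03% had an interaction above 0. Of 43 microRNA target genes tested, 4 rose and 3 fell in dsRNA and 1 rose and 1 fell in poly(A) RNA, near these shares. Near its share too, 1 interaction was called, above 0. That gene, NF-YA2, a transcription factor subunit targeted by miR169, had, as dsRNA, 186 and 193 CPM under low phosphate, against 50.9 and 45.3 CPM in controls and, as poly(A) RNA, 61.3 and 42.9 CPM under low phosphate, against 33.2 and 27.4 CPM in controls, an interaction of 1.19 ± 0.27 (SE, edgeR adjusted p = 0.0188). NF-YA2 (0.109) missed the threshold without dsRNA low phosphate replicate 1 (edgeR adjusted p in brackets). NF-YA2 (0.0632) missed the threshold without dsRNA low phosphate replicate 2. NF-YA2 (0.11) missed the threshold without dsRNA control replicate 1. NF-YA2 (0.14) missed the threshold without dsRNA control replicate 2.

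Genes of the chloroplast and of the translation machinery tended to values below 0 with few calls. Of 17 nuclear photosynthesis genes tested, 1 had a positive interaction and the others a negative one, with a median of -0.86. None was called by edgeR, DESeq2 or limma voom, and 3 had an unadjusted p under 0.05. PSBO1, of the oxygen-evolving complex, had, as dsRNA, 27.7 and 27.6 CPM under low phosphate, against 45.4 and 58.3 CPM in controls and, as poly(A) RNA, 135 and 98.7 CPM under low phosphate, against 81.5 and 130.4 CPM in controls, an interaction of -1.03 ± 0.33 (SE, edgeR adjusted p = 0.113). It passed without poly(A) low phosphate replicate 2 and without poly(A) control replicate 2 (edgeR adjusted p = 0.0122 and 0.0109). All 28 cytosolic ribosomal protein genes tested had a negative interaction, with a median of -0.34, and 4 fell in dsRNA, where 6.60% of all genes did. None had an interaction called by edgeR, DESeq2 or limma voom, and 7 had an unadjusted p under 0.05. RPS6B, of the small subunit, had an interaction of -0.68 ± 0.25 (SE, edgeR adjusted p = 0.167), which passed without dsRNA low phosphate replicate 2 (edgeR adjusted p = 0.0454). RPL18, whose protein carries the tag in the transgenic line as the growth text gives it, had, as dsRNA, 343 and 288 CPM under low phosphate, against 338 and 299 CPM in controls and, as poly(A) RNA, 387 and 458 CPM under low phosphate, against 323 and 371 CPM in controls, an interaction of -0.30 ± 0.25 (SE, edgeR adjusted p = 0.621). Of 52 plastid-encoded genes tested, 30 fell in dsRNA, where 6.60% of all genes did, and 1 in poly(A) RNA, where 0.719% did. Plastid and mitochondrial genes all lie on the lowered side of the step, so 6.60% is not a matched share for them. That side held 8010 of the 17118 genes tested and 874 of the 1129 that fell in dsRNA. The plastid falls in dsRNA were not counted with each side scaled separately. In the plastid list 3 interactions were called, all below 0, where 0.59% of all genes were. The median interaction of the plastid list was -0.64, and -0.41 when scaled on each side of the step. ATCG00180 had, as dsRNA, 102 and 141 CPM under low phosphate, against 274 and 234 CPM in controls and, as poly(A) RNA, 1.8 and 2.64 CPM under low phosphate, against 0.879 and 1.84 CPM in controls, an interaction of -1.85 ± 0.39 (SE, edgeR adjusted p = 0.0105). ATCG00140 and ATCG00190 had interactions of -2.17 ± 0.47 (SE, edgeR adjusted p = 0.0134) and -1.08 ± 0.29 (SE, edgeR adjusted p = 0.0484). ATCG00140 had 17 and 28 poly(A) counts under low phosphate, against 5 and 9 in controls. Its log2 change was -0.62 in dsRNA and 1.55 in poly(A) RNA, so the larger part of its interaction is the poly(A) change. Neither change was called (edgeR adjusted p = 0.0546 in dsRNA and 0.0559 in poly(A) RNA). As background, most stable plastid transcripts carry no poly(A) tail. Of 26 mitochondrion-encoded genes tested, 2 fell in dsRNA, near the 6.60% of all genes. No interaction in that list was called by edgeR, DESeq2 or limma voom, with 3 at an unadjusted p under 0.05 and a median of -0.30. That median was -0.09 when scaled on each side of the step and -0.07 without dsRNA low phosphate replicate 1. ATMG00090 had the smallest p, with an interaction of -0.75 ± 0.27 (SE, edgeR adjusted p = 0.157), which passed without dsRNA low phosphate replicate 2 (edgeR adjusted p = 0.0346). ATCG00180 (0.126), ATCG00140 (0.101) and ATCG00190 (0.153) missed the threshold without dsRNA low phosphate replicate 1 (edgeR adjusted p in brackets). ATCG00180 (0.0903), ATCG00140 (0.0551) and ATCG00190 (0.228) missed the threshold without dsRNA control replicate 1. ATCG00180 (0.0705), ATCG00140 (0.167) and ATCG00190 (0.203) missed the threshold without poly(A) control replicate 1. ATCG00140 (0.0649) and ATCG00190 (0.134) missed the threshold without dsRNA control replicate 2. ATCG00140 (0.0513) missed the threshold without poly(A) low phosphate replicate 2. ATCG00190 (0.129) missed the threshold without poly(A) low phosphate replicate 1. ATCG00190 (0.0596) missed the threshold without poly(A) control replicate 2.

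Among tissue and stress lists, 7 of 13 endodermis and suberin genes rose in dsRNA, where 9.98% of all genes did. In poly(A) RNA, where 1.93% of all genes rose, 0 of the 13 were called by edgeR, DESeq2 or limma voom and 1 had an unadjusted p under 0.05. No interaction was called by edgeR, DESeq2 or limma voom, and 5 had an unadjusted p under 0.05. FAR5, which makes alcohols for suberin, had, as dsRNA, 134 and 175 CPM under low phosphate, against 98.2 and 95 CPM in controls and, as poly(A) RNA, 43.9 and 43.4 CPM under low phosphate, against 52.6 and 40.6 CPM in controls; its interaction of 0.77 ± 0.26 (SE, edgeR adjusted p = 0.134) passed when scaled on each side of the step (edgeR adjusted p = 0.0155). Of 10 wound, touch and early stress genes, 5 rose in dsRNA, against the same 9.98%. As poly(A) RNA 0 of the 10 were called by edgeR, DESeq2 or limma voom and 0 had an unadjusted p under 0.05. No interaction was called by edgeR or limma voom, 1 was by DESeq2, and 2 had an unadjusted p under 0.05. ZAT12, a zinc finger factor of early stress, had, as dsRNA, 36.2 and 51.2 CPM under low phosphate, against 15.7 and 21.7 CPM in controls and, as poly(A) RNA, 74.0 and 63.3 CPM under low phosphate, against 64.2 and 59.0 CPM in controls, an interaction of 1.1 ± 0.30 (SE, edgeR adjusted p = 0.0558) that passed when scaled on each side of the step (edgeR adjusted p = 0.00884). It also passed without poly(A) low phosphate replicate 1 and without poly(A) control replicate 2 (edgeR adjusted p = 0.0144 and 0.037). Over all genes the interaction was above 0 for 2.03% and below 0 for 0.59%. Of 26 histone genes 1, HTB2, was called below 0 at -1.11 ± 0.29 (SE, edgeR adjusted p = 0.0415). In the list of 11 meristem and cell division genes the cyclin-dependent kinase CDKB2;2 was called above 0 at 1.57 ± 0.35 (SE, edgeR adjusted p = 0.0152). SKOR was the single called member of 9 vascular markers, VSP1 of 7 jasmonate genes at -1.0 ± 0.26 (SE, edgeR adjusted p = 0.0469), and ADH1 of 7 low oxygen genes at 1.76 ± 0.47 (SE, edgeR adjusted p = 0.0478). HTB2 (0.181), CDKB2;2 (0.0659), VSP1 (0.172) and ADH1 (0.116) missed the threshold without dsRNA low phosphate replicate 1 (edgeR adjusted p in brackets). HTB2 (0.287), CDKB2;2 (0.198), VSP1 (0.165) and ADH1 (0.246) missed the threshold without dsRNA control replicate 1. HTB2 (0.106), VSP1 (0.197) and ADH1 (0.148) missed the threshold without dsRNA control replicate 2. HTB2 (0.105), VSP1 (0.118) and ADH1 (0.214) missed the threshold without poly(A) control replicate 1. VSP1 (0.111) missed the threshold without poly(A) low phosphate replicate 2. VSP1 (0.105) missed the threshold without poly(A) control replicate 2. ADH1 (0.14) missed the threshold without dsRNA low phosphate replicate 2. ADH1 also missed the threshold when scaled on each side of the step (edgeR adjusted p = 0.0984). The 6 flavonoid, 5 metallothionein, 6 heat shock and 12 circadian clock genes tested had no interaction called by edgeR, DESeq2 or limma voom, and 1, 1, 1 and 3 of them had an unadjusted p under 0.05. The medians in that order were 0.71, 0.38, -0.38 and 0.25. That of the heat shock genes was -0.18 when scaled on each side of the step, and that of the metallothioneins 0.22 without dsRNA low phosphate replicate 1. Their members of smallest p were FLS1 at 0.97 ± 0.33 (SE, edgeR adjusted p = 0.137), which passed when scaled on each side of the step (edgeR adjusted p = 0.0288), without dsRNA low phosphate replicate 1 (0.0391) and without poly(A) low phosphate replicate 1 (0.0134), MT1A at 0.55 ± 0.26 (SE, edgeR adjusted p = 0.307), HSP90.1 at -0.69 ± 0.32 (SE, edgeR adjusted p = 0.302) and FKF1 at 1.94 ± 0.72 (SE, edgeR adjusted p = 0.176).

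**Figure D4:**
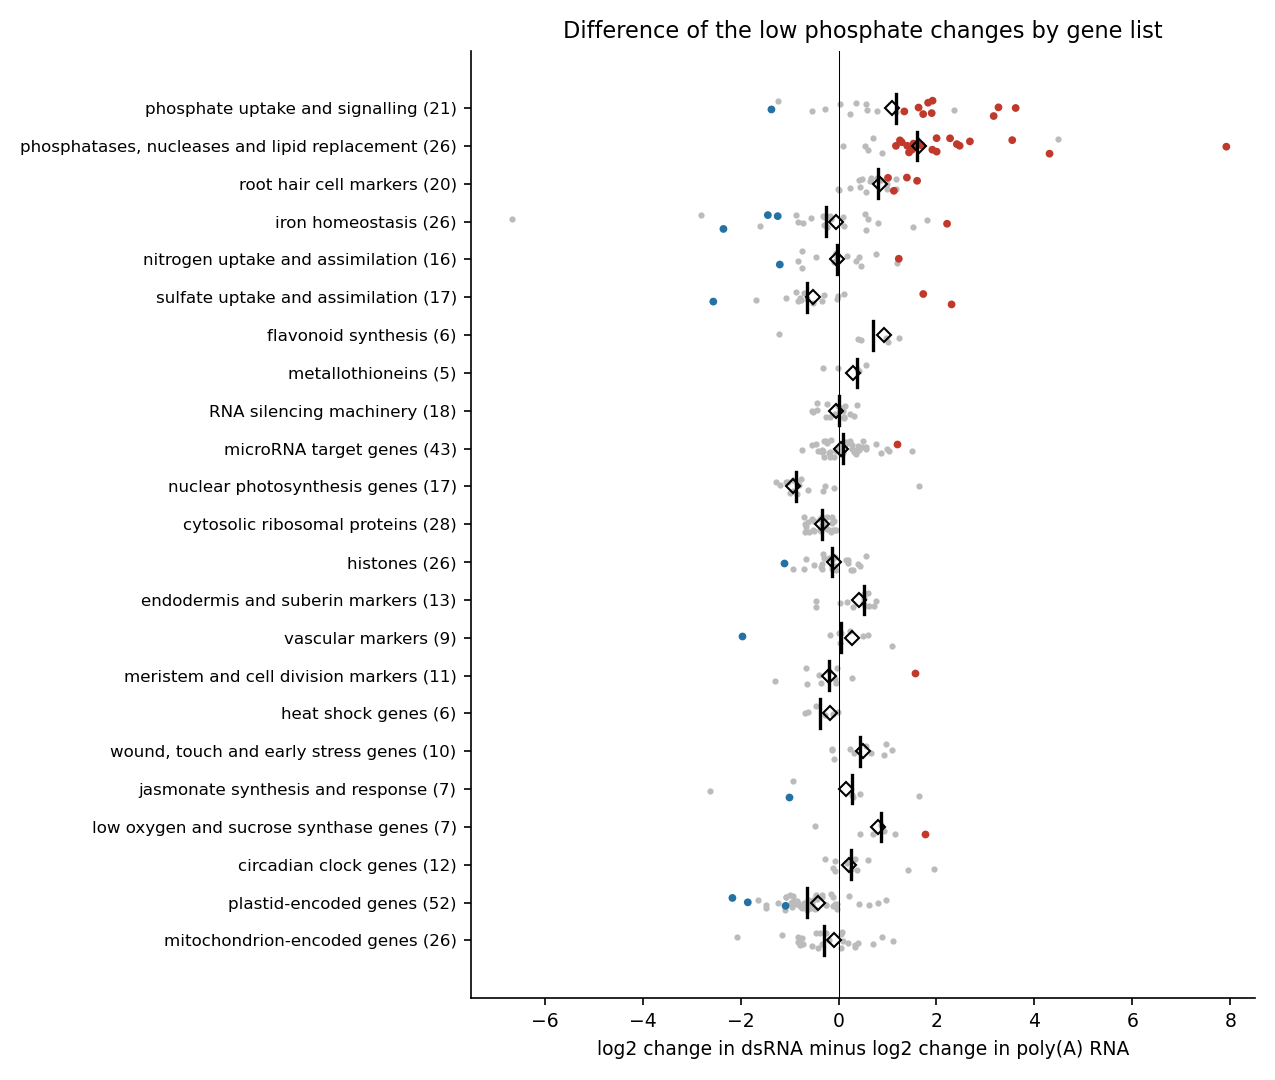
Interaction (horizontal axis, log2 change in dsRNA minus log2 change in poly(A) RNA) of each tested member of 23 gene lists (rows, number tested in brackets); red points were called above 0, blue points below 0 and grey points not called. Black bars are list medians and open diamonds the medians when scaled on each side of the step; the 3 phosphate and root hair lists at the top have medians of 1.18, 1.6 and 0.81.

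Ribosome footprints, a readout that did not enter the interaction, were available for most of these genes. Of the 347 genes with an interaction above 0, 341 had a footprint value, 281 of them positive, and 55 rose and 1 fell in footprints, against 0.777% of genes rising and 0.223% falling among the 16599 measured. Their median log2 change was 0.43 in footprints, 0.50 in poly(A) RNA and 2.19 in dsRNA. Of the 101 genes below 0, 100 had a footprint value, with 10 falling and 2 rising and medians of -0.22 in footprints, -0.07 in poly(A) RNA and -1.68 in dsRNA. Footprints and poly(A) RNA came from the same kind of extract and line label and were both counted over coding sequence. The likeness of these values, the shared source and the shared counted region cannot be told apart. In 4 genes picked after their values were seen, the footprint log2 change was nearer to the poly(A) change than to the dsRNA change. It was -0.87 for BIP3, 2.42 for SULTR1;1, -0.02 for AGT and 0.46 for TI1. Other called genes were nearer to their dsRNA change, among them GH9B8 (0.27), SULTR1;3 (4.25), ATCG00180 (-0.73), ATCG00140 (-0.61) and ATCG00190 (-0.70). The called genes nearer to each assay were not counted.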

How the data were processed

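Roots of Arabidopsis seedlings were measured as dsRNA and as poly(A) RNA. The submitters' processing notes name Bowtie2 2.2.9, TopHat 1.3.1, CASAVA 1.8 and the TAIR10 build. No source used here gives the read counter or its strand setting. The deposited counts are whole reads per gene (dsRNA) and per coding sequence (poly(A) RNA, footprints) as the authors made them. The RPKM values of the deposited UTR tables were not used, only the names and positions in those tables. Small RNA loci carry total read counts, per the file headers.

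The 8 libraries (2 per group) were fitted together with edgeR 4.0.16 in R 4.3.3: TMM scaling over genes passing filterByExpr in each assay, a quasi-likelihood fit without a block and two-sided tests, with Benjamini-Hochberg adjustment over 17118 genes and a threshold of 0.05. Errors of log2 changes are SE, and CPM are normalized counts relative to library size. The fit gives 2 libraries per group, so no exact test of single genes could reach the threshold. On simulated counts for this interaction over 17118 genes, 79% of 100 genes changed 4-fold and 24% of 100 changed 2-fold were recovered, with 4 false calls. The simulated libraries held no step like that of dsRNA low phosphate replicate 1, so these false calls do not cover its effect. Counting intervals are exact and cover counting error only, and the floor is 3 counts in each library. Alternatives used DESeq2 1.42.0 and limma 3.58.1. Names came from a TAIR10.1 table, with 26719 of 27416 loci matched.

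Named genes are the 12 largest called interactions each way with a mean dsRNA log2 CPM of at least 1, all 4 dsRNA library differences on 1 side of the 4 poly(A) ones and at most 3 without a symbol. Each of the 23 lists adds its genes of smallest p (at most 3, or 1 where no member was called). Further names are genes called in opposite directions, and fixed phosphate genes. Other called members of the first 3 lists and called genes overlapping a called gene on the other strand were added after their values were seen. The members and lists were chosen with earlier results of these data known.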

Additional observations from a re-analysis of the deposited data

Results flagged for a closer look

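In these 3 genes the low phosphate change differed between the assays in sign as well as in the test of the difference, dsRNA minus poly(A) RNA. The log2 difference was 4.95 for BIP3, 1.71 for BCAT4 and 1.48 for GH9B8, with edgeR adjusted p-values of 0.00072, 0.000965 and 0.00243. In each gene both dsRNA low phosphate libraries were above both dsRNA controls, and both poly(A) low phosphate libraries were below both poly(A) controls. With 2 libraries a group, no single library could be set against its group as an outlier. Scaled on each side of the step, the dsRNA rise of GH9B8 was no longer called (edgeR adjusted p = 0.0555).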

How the results depend on the processing

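The 347 interactions above 0 and 101 below 0 numbered 651 and 222 without a low count filter, 582 and 223 with a replicate block within each assay, and 113 to 542 and 16 to 184 when 1 library was left out. Below 0 there were 52 with limma voom and 57 with limma voom with variance by assay. No label says that library numbers mark shared material, and the data do not settle it (correlation of deviations -0.021 between dsRNA groups and 0.219 between poly(A) groups), and a fit with the replicate block over all libraries gave 407 and 127, with 447 of the 448 calls shared. Library totals moved the median interaction of all genes to -0.13, against -0.032, and gave 270 and 132. List members called, 40 above 0 and 12 below, numbered 17 to 57 and 1 to 24 with 1 library left out; below 0 they were 21 without a filter, 7 with limma voom and 22 with the block within each assay. Genes rising in dsRNA numbered 890 to 1989 and genes falling 403 to 1324 with 1 library left out. Falling genes were 1707 with library totals, 624 with limma voom and 708 with limma voom with variance by assay. In poly(A) RNA, rising genes were 228 to 375 with 1 library left out and 176 with each assay fitted alone. Falling genes there were 85 to 254 with 1 library left out, 255 without a filter, 187 with limma voom, 249 with the block within each assay and 39 with each assay alone. The interaction of PHO1 turned to -0.064 with library totals and -0.077 scaled on each side of the step, and ran between -0.081 (without dsRNA low phosphate replicate 1) and 0.146 with 1 library left out. Without poly(A) control replicate 1 it turned to -1.73 for IPS1 and -1.48 for PEPC1, which without poly(A) control replicate 2 stood at 1.98 and 1.25. With all libraries none of these 3 was called; IPS1 was called without poly(A) control replicate 2 (edgeR adjusted p = 0.00985). The cause of these changes was not tested. Over the named genes, 1681 values kept direction and side of the threshold, 194 lost the call, 26 gained it and 6 turned. These values pool genes and alternative runs, and include named genes that the main fit did not call. Of the 76 named genes that it called, 21 kept direction and call under every alternative run. With 2 libraries a group and 2735264 counts in the smallest dsRNA library, changes near 2-fold were mostly below what the fit could call.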
